A study of Mus musculus with 2 samples.

Results

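Oct4, Sox2 and a group of classic stem cell genes that they control were followed in mouse embryonic stem cells with and without restored Tcl1. The group was defined by name as 10 genes (Pou5f1, Sox2, Utf1, Fbxo15, Lin28a, Rif1, Sall4, Dppa2, Dppa4 and Fgf4), and a probe was taken as belonging to it when GEO's annotation of the platform gave it 1 of these symbols. Of the 10 genes, 9 were measured with 11 spots, out of 19087 named genes and 30110 entries in all, where an entry is a named gene or a single probe without a name. Fgf4 had no listed probe and was not analysed here.

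RNA was compared on 2 Agilent arrays, each carrying a Tcl1 stable transformant and a Tcl1 gene disruptant in the 2 dyes. Both Tcl1 copies of all these lines had been disrupted with a PGK-puro cassette, and the transformants carried in addition a vector, CAG-Tcl1ireszeopA, put into disruptant clone 4, so they descend from 1 clone. Array 1 set transformant clone 1 in Cy5 against disruptant clone 4 in Cy3. Array 2 set transformant clone 4 in Cy3 against clone 6 in Cy5, a disruptant stably transfected with CAG-EGFP, so a control vector was present on array 2 and is not stated for array 1. The cells grew on gelatin with LIF and serum and without feeders. Neither the parental line nor any relation of clone 6 to clone 4 is stated. The clone pair, the dye orientation and the control vector differ together between the arrays and cannot be told apart.

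Oct4, the product of Pou5f1, is a POU domain factor that binds an octamer in DNA, and Sox2 is an HMG box factor that binds a short core next to it. The pair occupies joined elements in the enhancers of many genes of the inner cell mass and of embryonic stem cells, Fgf4, Utf1 and Fbxo15 among the first described, and both factors also act on their own genes. Tcl1, a cofactor of the kinase Akt, is itself a known Oct4 target in these cells, so this comparison varied a gene downstream of the pair.

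Values below are log2 ratios, transformant over disruptant, first for array 1 and then for array 2, and a mean carries its SD over n = 2 arrays. The deposited numbers were read as log10 ratios of Cy5 over Cy3. That scale is inferred, that direction is likely from the convention of the scanner program, and with the opposite direction every sign would turn together. A ratio gives no level, and without the intensities of the single dyes neither detection of a spot nor abundance of a stem cell marker in either line can be judged. In such bulk RNA, fewer cells with a transcript and less of it per cell cannot be told apart. Tcl1 had −0.37 and 0.17, and whether its probe lies in the disrupted part or in the vector's insert is not known, so it checks neither labels nor direction. Across all entries the arrays ran weakly against each other (Pearson r = −0.19 across genes, which are not replicates; −0.77 over all spots with the control spots kept), with an SD of 0.464 on array 1 and 0.498 on array 2.

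The group was not shifted as a block. Fbxo15 and Sox2 lay below 0 on both arrays by at least the SD of all entries, Dppa4 lay slightly below 0 on both, and Pou5f1 and Utf1 lay above 0 on both. Lin28a was far below 0 on array 1 alone, Rif1 far above 0 on array 1 alone, and Sall4 and Dppa2 stayed near 0. In counts, 4 of 9 genes were below 0 on both arrays, where 17.0% of all entries and 19.4% of named genes were. Above 0 on both were 2 of 9, against 21.0% of all entries and 22.1% of named genes. Over entries that were not exactly 0 on either array these shares were 18.6% below and 23.0% above. The median was −0.23 on array 1 and −0.12 on array 2, against 0 and 0 over all entries. None of the 9 genes passed limma's test over all entries (adjusted p = 1 for each), and neither did any other entry, 0 of 30110 or 0%. At an unadjusted limma p under 0.05 stood 2 of the 9, Sox2 and Fbxo15, and 3.15% of all entries (947). With array 2 left unturned, against its dye labels, 2770 entries had such a p, and the arrays then correlate with the opposite sign.

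**Figure D1:**
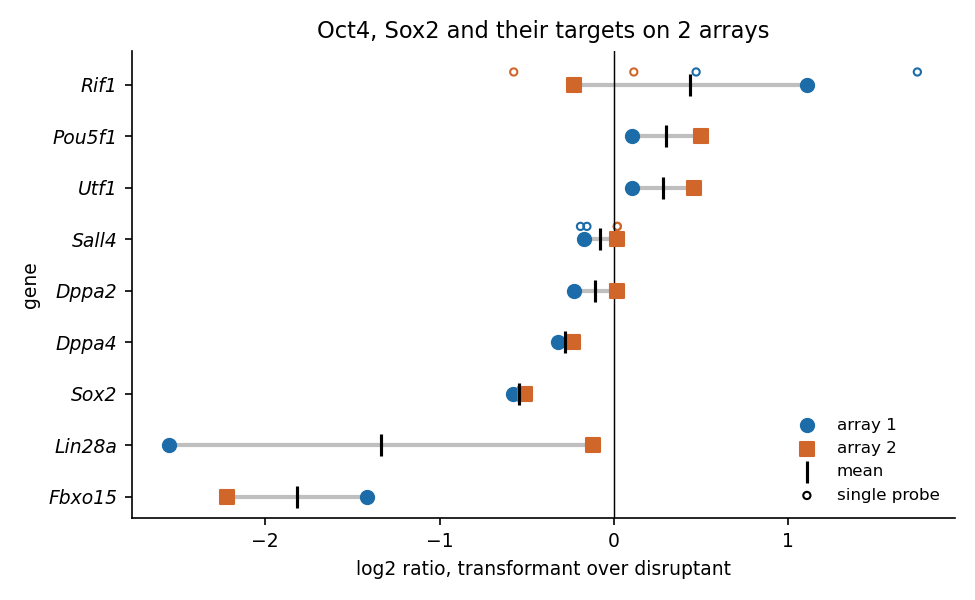
Log2 ratio of transformant over disruptant (x axis) for the 9 measured genes (y axis), ordered by mean. Filled circles are array 1, squares array 2, bars the mean, and small open circles single probes of the 2 genes that had 2 probes. The arrays lie close together for Sox2 and Dppa4 and far apart for Lin28a and Rif1.

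Pou5f1, whose product must be kept within a narrow range for these cells to stay undifferentiated, gave 0.10 on array 1 and 0.50 on array 2. Both values lay above 0, and array 2 was the higher. The mean was 0.30 ± 0.28 (SD, n = 2), or 1.23-fold higher in the transformants, with a limma 95% interval of −0.45 to 1.05 that includes 0. Pou5f1 has processed copies elsewhere in the genome, and whether they share its signal was not tested.

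Sox2, the partner of Oct4, gave −0.58 and −0.51. The arrays differed by only 0.0664, a smaller gap than that of all but 12.4% of named genes, and Sox2 was lower in the transformant of each pair. The mean was −0.54 ± 0.05 (SD, n = 2), or 1.46-fold lower, with a 95% interval of −0.90 to −0.19 and an unadjusted limma p of 0.0228 that did not survive adjustment (adjusted p = 1). By mean, 5.73% of named genes stood lower than Sox2 and 91.9% stood lower than Pou5f1. Within each array Sox2 stood 0.68 and 1.01 below Pou5f1, and the partners lay on opposite sides of 0 in both clone pairs. On array 1, though, Pou5f1 was only slightly above 0, and 62.7% of named genes stood lower.

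The start regions of both genes are shown together with those of Utf1 and Lin28a because these are the 4 measured genes of the group with an entry among the RefSeq promoters of GRCm38.p6, as had Fgf4. Each run covers 250 bases before and 50 bases after an annotated start, 5′ to 3′ in the direction of the gene. For Pou5f1, which has another start in that table, it is the one at the beginning of the annotated gene. Capitals mark matches on either strand to the SOX core letters CATTGT or CTTTGT and to the GC box letters GGGCGG.
Pou5f1 promoter, GRCm38.p6, chr17:35505782-35506081, plus strand: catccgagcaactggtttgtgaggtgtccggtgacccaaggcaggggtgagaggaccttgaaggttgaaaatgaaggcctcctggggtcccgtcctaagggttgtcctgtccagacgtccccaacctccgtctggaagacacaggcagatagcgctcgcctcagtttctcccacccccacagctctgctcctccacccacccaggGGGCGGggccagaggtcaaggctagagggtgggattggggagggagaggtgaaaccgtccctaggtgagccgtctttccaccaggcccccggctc
Sox2 promoter, GRCm38.p6, chr3:34649745-34650044, plus strand: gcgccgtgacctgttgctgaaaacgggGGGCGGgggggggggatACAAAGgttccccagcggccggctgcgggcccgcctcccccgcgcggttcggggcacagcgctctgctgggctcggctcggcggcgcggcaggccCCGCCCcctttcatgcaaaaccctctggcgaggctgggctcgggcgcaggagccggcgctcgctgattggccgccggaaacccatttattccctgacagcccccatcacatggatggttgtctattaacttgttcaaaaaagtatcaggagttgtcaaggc
Utf1 promoter, GRCm38.p6, chr7:139943606-139943905, plus strand: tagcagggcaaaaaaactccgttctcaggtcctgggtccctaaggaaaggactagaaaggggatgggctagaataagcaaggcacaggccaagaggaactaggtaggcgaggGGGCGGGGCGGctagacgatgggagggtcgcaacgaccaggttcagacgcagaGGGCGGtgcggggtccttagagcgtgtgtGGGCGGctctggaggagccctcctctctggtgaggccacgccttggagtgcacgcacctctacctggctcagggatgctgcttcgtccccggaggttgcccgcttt
Lin28a promoter, GRCm38.p6, chr4:134018767-134019066, minus strand: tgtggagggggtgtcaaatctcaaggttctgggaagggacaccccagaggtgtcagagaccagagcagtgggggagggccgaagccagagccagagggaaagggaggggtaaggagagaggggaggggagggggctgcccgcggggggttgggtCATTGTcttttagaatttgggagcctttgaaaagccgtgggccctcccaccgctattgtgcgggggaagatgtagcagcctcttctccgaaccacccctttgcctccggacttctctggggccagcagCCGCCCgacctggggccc

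Sox2 held 1 SOX core match, ACAAAG on the printed strand, whose first base lies 206 bases before the start, and Lin28a held 1, CATTGT, 96 bases before it. The windows of Pou5f1 and Utf1 printed here held neither, while the window of the other annotated Pou5f1 start, not printed, held 1, ACAATG, 158 bases before that start. None of the 4 windows held the octamer ATGCAAAT or its looser form ATGCNAAT. Among 32851 RefSeq promoters of this length, 12.6% held CATTGT, 18.7% CTTTGT, 1.74% ATGCAAAT and 3.15% ATGCNAAT on either strand. GC boxes, a letter pattern added after the sequences were seen, numbered 4 in Utf1 (of which 2 overlap), 2 in Sox2, 1 in Pou5f1 and 1 in Lin28a, and 35.7% of promoters held one. Sox2 and Utf1 were the richer in CpG, with 27 and 17 sites, while Pou5f1 had 11 and Lin28a 10, against a median of 7 over all promoters. Sox2 and Utf1, the CpG-rich pair, lay on opposite sides of 0, Utf1 by only 0.10 on array 1. The known joined elements of Utf1 and Fgf4 lie in enhancers downstream of the start, and a match in these windows is a description of letters and not a binding site.

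Utf1, a chromatin-bound protein of undifferentiated cells whose enhancer carries a joined Oct4 and Sox2 element, gave 0.10 and 0.46. Its values lay close to those of Pou5f1, though with 2 values a gene such a likeness is weak. The difference between Pou5f1 and Utf1 was −0.0033 on array 1 and 0.04 on array 2, the smallest separation among the 36 pairs of measured genes. The mean of Utf1 was 0.28 ± 0.25 (SD, n = 2), or 1.22-fold higher, with a 95% interval of −0.41 to 0.97.

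Fbxo15, an F-box protein whose enhancer also carries a joined element but which mouse stem cells can do without, gave −1.42 and −2.22. It was the lowest of the 9 genes by mean and the only one at least 2-fold lower on both arrays, a size that 58 of all 30110 entries reached (0.193%), while 0.0166% were at least 2-fold higher on both. The fold was 2.67 on array 1 and 4.67 on array 2, and the mean −1.82 ± 0.57 (SD, n = 2) is 3.53-fold. The 95% interval was −3.23 to −0.41, with an unadjusted limma p of 0.0318 (adjusted p = 1), and 0.11% of named genes had a lower mean. Fbxo15 and Utf1, 2 targets of the same kind of element, stood 1.52 apart on array 1 and 2.68 apart on array 2. Fbxo15 had 1 probe, so no second probe bears on the value.

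Lin28a, an RNA-binding protein that blocks maturation of the let-7 miRNAs, gave −2.55 and −0.12. The transformant was 5.86-fold lower on array 1, where 0.0786% of named genes stood lower, and 1.09-fold lower on array 2, where 36.3% did. The mean of −1.34 ± 1.72 (SD, n = 2) therefore rests on array 1, and its 95% interval ran from −5.47 to 2.80. The gap of 2.43 between the arrays was larger than that of 99.3% of named genes. Lin28a, too, had 1 probe.

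Rif1, a protein of telomere and replication timing control and a known Oct4 target, gave 1.11 and −0.23. Its 2 probes were spread over 0 on array 2 and far apart on array 1, where 1 read 1.74 and the other 0.47. On array 2 the same probes read 0.11 and −0.57. Both probes stood higher on array 1 than on array 2, by over 1 on the log2 scale, although both were assigned to the same transcript. The gene mean of 0.44 ± 0.95 (SD, n = 2) had a 95% interval of −1.85 to 2.73.

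Sall4, a zinc finger factor that binds Oct4 and Nanog and activates Pou5f1, gave −0.17 and 0.02. Its 2 probes repeated each other, with −0.15 and −0.19 on array 1 and 0.02 for both on array 2. The mean was −0.08 ± 0.14 (SD, n = 2) and the 95% interval −0.54 to 0.39. The probes of Sall4 lay closer together than those of Rif1 on each array.

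Dppa2 and Dppa4 are neighbouring genes on chromosome 16 whose SAP domain proteins form a pair, bind chromatin and prime developmental genes. Dppa2 gave −0.23 and 0.02, with a mean of −0.11 ± 0.17 (SD, n = 2) and a 95% interval of −0.64 to 0.43. Dppa4 gave −0.32 and −0.24, with a mean of −0.28 ± 0.06, an interval of −0.64 to 0.08 and an unadjusted limma p of 0.0788. Dppa4 stood below Dppa2 by 0.09 on array 1 and 0.25 on array 2. Both lay near Sall4, and these 3 genes filled the narrow middle of the group.

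Of the 36 pairs of measured genes, 27 kept the same order on both arrays. The other 9 pairs each held Lin28a or Rif1, apart from the near tie of Pou5f1 and Utf1. The pairs share genes, and the share that keeps its order among pairs of all named genes was not computed. By mean, the order from lowest to highest was Fbxo15, Lin28a, Sox2, Dppa4, Dppa2, Sall4, Utf1, Pou5f1 and Rif1. Among neighbours in that order, Fbxo15 and Lin28a, Lin28a and Sox2, Utf1 and Pou5f1, and Pou5f1 and Rif1 changed places between the arrays. Sall4 and Dppa2 kept their order but differed by only 0.06 and 0.0031, while Dppa4 stood above Sox2 by 0.25 and 0.28.

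**Figure D2:**
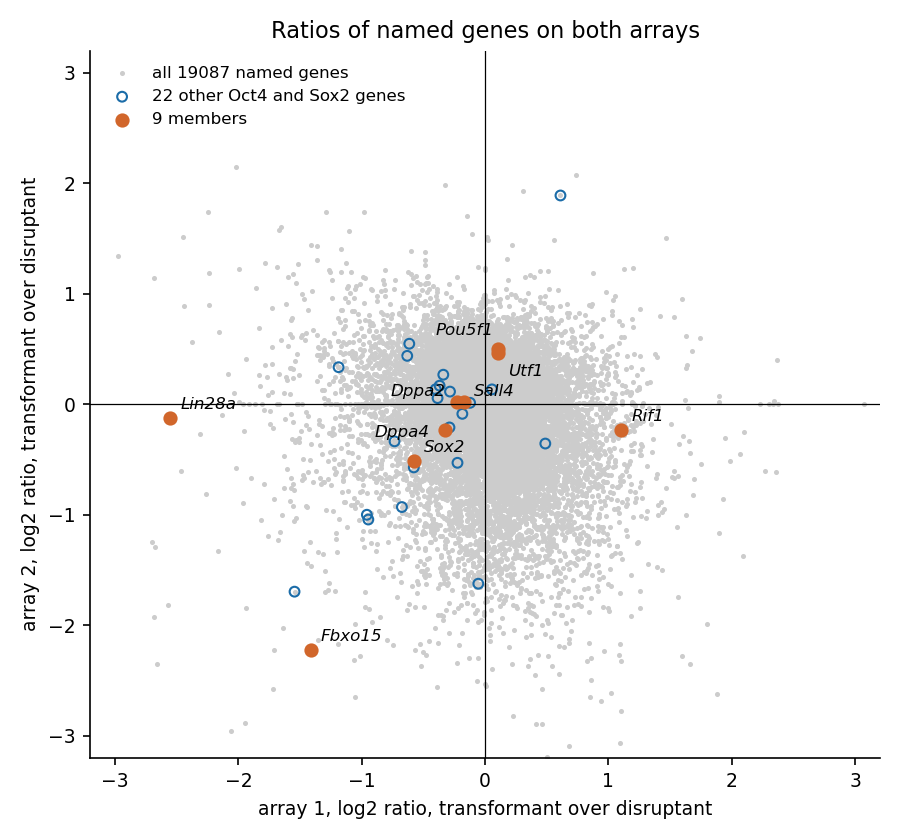
Log2 ratio of transformant over disruptant on array 1 (x axis) and array 2 (y axis) for all named genes (grey), the 22 other measured genes controlled by Oct4 and Sox2 (open circles) and the 9 genes of the group (filled). Fbxo15 lies far into the lower left, Lin28a and Rif1 lie far out along the x axis only, and 15 named genes beyond 3.2 on either axis are not drawn.

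Other genes known to be bound or controlled by the pair were listed as 24, of which 22 were measured, Tcl1 itself (−0.37 and 0.17) included. On both arrays 10 of these lay on the lower side and 2 on the upper side, where 19.4% and 22.1% of named genes did. The median was −0.38 on array 1 and −0.04 on array 2. By limma 0 passed the adjusted test and 5 had an unadjusted p under 0.05, as had 3.15% of all entries. The lowest was Zfp42, a zinc finger marker of undifferentiated cells, with −1.54 and −1.70, and the highest was Gbx2, a homeobox gene, with 0.61 and 1.89. With the 9 genes of the group added, 14 of 31 were lower on both arrays and 4 higher. Among 136 measured genes of all related lists, the 9 genes of the group left out, those with array values nearest to Sox2 were Lefty2 (distance 0.0598), Eomes (0.0698) and Gsc (0.159). Nearest to Pou5f1 outside the group, where Utf1 was nearer (0.0367), were Fgfr2 (0.0834), Fgf15 (0.104) and Gata4 (0.173). With 2 values a gene this likeness is weak, since 11 named genes were at least as near to Sox2 as Lefty2 was and 137 at least as near to Pou5f1 as Fgfr2 was.

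Protein partners of the pair had unlike medians on the arrays, 0.06 on array 1 and −0.50 on array 2. Of 24 measured, 5 were lower on both arrays and 2 higher, against 19.4% and 22.1% of named genes. Limma's adjusted test was passed by 0, and 1 had an unadjusted p under 0.05, against 3.15% of all entries. Nr5a2, a nuclear receptor that binds the Pou5f1 promoter, was lowest with 0.04 and −2.14, so its mean of −1.05 rests on array 2. Mta1, a subunit of the NuRD repressor complex, was highest with 0.28 and 0.36.

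Of 16 measured family relatives of the group, POU, SOX, SALL and LIN28 genes, 6 were higher on both arrays and 2 lower. Among named genes as a whole, too, more were higher (22.1%) than lower (19.4%), and 8 of the relatives were on neither side on both arrays. Their medians were 0.15 and 0.05. By limma 0 passed the adjusted test and 1 had an unadjusted p under 0.05, against 3.15% of all entries. Sox3, the X-linked relative of Sox2 that shares its DNA binding and marks neural precursors, was highest with 1.26 and 0.44. Sox4 was lowest with −0.22 and −0.34.

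Genes of the let-7 pathway, in which Lin28a acts, had a median of 0.15 on array 1 and of −0.43 on array 2. The protein partners differed in the same direction between the arrays (0.06 and −0.50), and a link of the let-7 medians to Lin28a was not tested. Of 15 measured processing factors and let-7 targets, 1 was lower on both arrays and 2 higher, against 19.4% and 22.1% of named genes. Limma's adjusted test was passed by 0, and 0 had an unadjusted p under 0.05, against 3.15% of all entries. Dgcr8, a subunit of the nuclear miRNA processor, was lowest with −0.25 and −0.60. Its 3 probes disagreed, with −0.22, −0.66 and 0.15 on array 1 and −0.0018, 0.38 and −2.18 on array 2. Tut4, a uridylyl transferase that acts with Lin28a on let-7 precursors, was highest with 0.69 and 0.02. The 4 probes of Tut4 ranged from −0.11 to 1.70 on array 1 and from −0.11 to 0.22 on array 2. Lin28b, the relative of Lin28a, had 0.28 and −0.53.

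The signal of Fgf4, which had no listed probe and was not analysed here, passes through FGF receptors and ERK. Of 13 measured receptors, relatives and feedback genes, 6 were higher on both arrays and 1 lower, against 22.1% and 19.4% of named genes. The medians were 0.04 and 0.17. By limma 0 passed the adjusted test and 0 had an unadjusted p under 0.05, against 3.15% of all entries. Dusp6, a phosphatase of ERK, was highest with 0.67 and 0.22, and Fgf5, a gene of the later epiblast, lowest with −0.47 and −1.49.

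Of 12 listed genes that the Dppa2 and Dppa4 proteins activate, 8 were measured. On both arrays 6 of these were lower and 0 higher, against 19.4% and 22.1% of named genes, the medians being −0.18 and −0.21. Limma's adjusted test was passed by 0, and 1 had an unadjusted p under 0.05, against 3.15% of all entries. Sp110, a nuclear body protein, was lowest with −0.48 and −1.56, and Nkx2-5 highest with −0.13 and 0.01. The list holds genes with near-identical copies, such as Zscan4c, Tcstv1 and Tcstv3, whose separate values are uncertain.

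Of 12 measured genes in a list drawn up as trophoblast genes held down by Oct4, 6 were lower on both arrays and 1 higher. Among named genes these shares were 19.4% and 22.1%, and the medians of the list were −0.28 and −0.39. Whether Oct4 holds down each listed gene in these cells was not tested. By limma 0 passed the adjusted test and 2 had an unadjusted p under 0.05, against 3.15% of all entries. Tfap2c was lowest with −0.85 and −0.98, and Hand1 highest with 0.76 and 0.23. Cdx2, the trophoblast factor that opposes Oct4, was named after its values were seen and had −0.88 and 0.38.

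**Figure D3:**
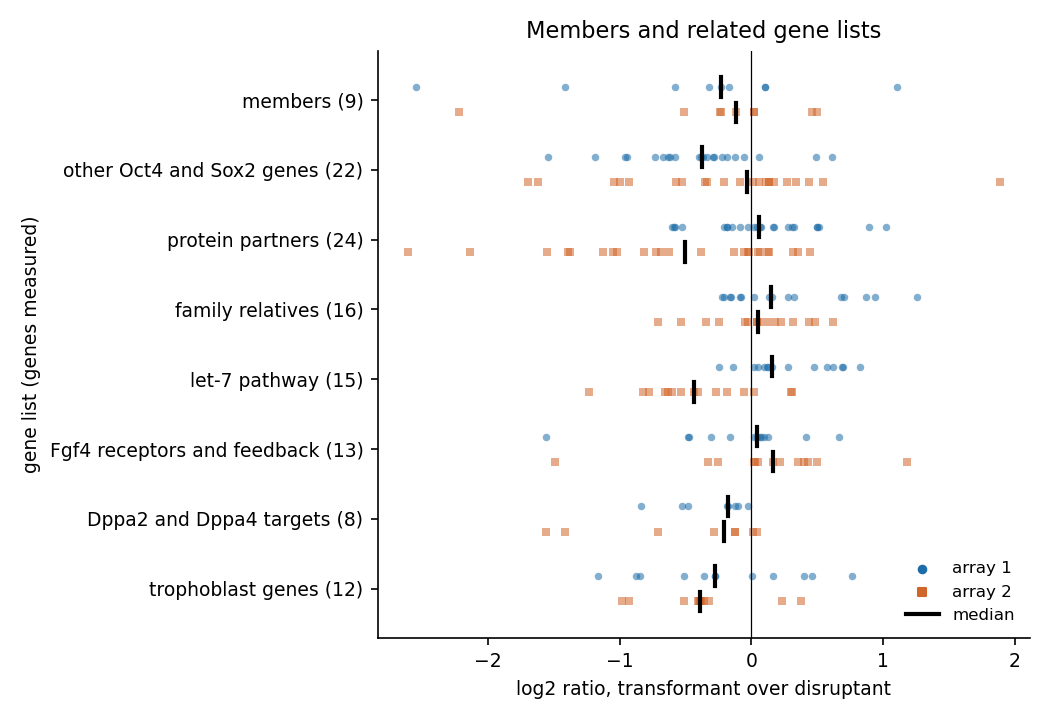
Log2 ratio of transformant over disruptant (x axis) of single genes in the group and in 7 related lists (y axis, number of measured genes in brackets). Circles are array 1, squares array 2, and black bars the median of a list on that array. The medians of the protein partners and of the let-7 pathway stand apart between the arrays, by 0.06 against −0.50 and 0.15 against −0.43.

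Markers of stem cells and of other cells were set beside the group. Among named genes 19.4% were lower on both arrays and 22.1% higher, shares to set beside each marker list here. Of 11 measured stem cell markers, 9 were lower on both arrays, led by Dppa3 with −2.66 and −2.35. Those higher on both were Pou5f1 and Utf1. By limma 0 passed the adjusted test and 6 had an unadjusted p under 0.05, as had 3.15% of all entries. The medians of the list were −0.95 and −0.72. It shares Pou5f1, Sox2 and Utf1 with the group, and Nanog, Zfp42, Esrrb, Dppa5a and Tdgf1 with the other controlled genes above, so most of it was already counted. For fibroblasts 3 of 12 were lower on both arrays and 2 higher, the medians being −0.09 and 0.07, between Thy1 (−1.06 and −0.91) and Pdgfrb (1.38 and 0.46). For primitive endoderm 1 of 10 was lower and 0 higher, between Lama1 (−1.57 and −0.09) and Gata4 (−0.04 and 0.40). For early differentiation 3 of 7 were lower and 0 higher, between Fgf5 and Pax6 (0.40 and −0.08). In the fibroblast, endoderm and early differentiation lists 0 passed limma's adjusted test. An unadjusted limma p under 0.05 was held by 1, 0 and 2 of their genes. The part of other cells in the values of the group was not tested.

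The genomic neighbours of the group had medians near 0, though more lay below 0 on both arrays than above. The 54 measured genes within 3 places of the 10 genes had medians of −0.02 on both arrays. Of these 54, 16 were below 0 on both and 10 above, against 19.4% and 22.1% of named genes. Around Fbxo15 on chromosome 18, the 6 nearest measured genes lay between −0.52 and 0.34 on array 1 and between −0.56 and 0.14 on array 2, well above Fbxo15 on each array. Around Lin28a on chromosome 4, the 6 nearest lay between −0.54 and 1.01 on array 1, where Lin28a had −2.55. The highest of all neighbours by mean was Hmgn2 beside Lin28a, with 1.01 and 0.44, a chromatin protein gene with many copies in the genome, whose share in its signal was not tested. The lowest was Morc1, a germ cell gene of transposon silencing beside Dppa2, with −0.88 and −0.80. Among measured genes Morc1, Dppa2 and Dppa4 follow each other, and Morc1 was the lowest of the 3 on both arrays. Tcf19, next to Pou5f1, had 0.20 and 0.40 and was above 0 on both arrays like it, a gene named after its values were seen.

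**Figure D4:**
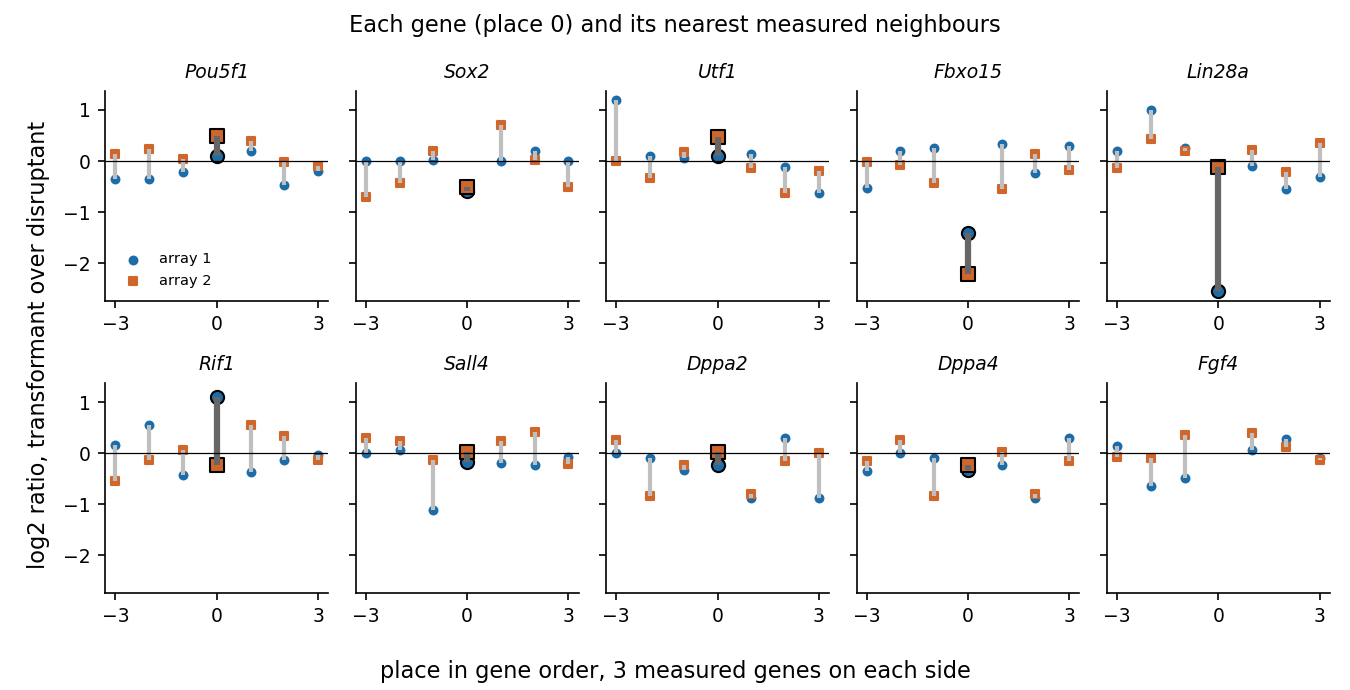
Log2 ratio of transformant over disruptant (y axis) for each gene of the group (large symbols at place 0) and the 3 nearest measured genes on each side in the order of RefSeq genes (x axis, places and not distances). Circles are array 1 and squares array 2, joined by a line. On array 1 Fbxo15, Lin28a and Sox2 stand below all of their neighbours, on array 2 Fbxo15 alone does, and Fgf4 has no value at place 0.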

How the data were processed

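The authors deposited 1 value for each of 43790 spots and 2 arrays, made with Agilent Feature Extraction per the submitters' processing notes; how background and dyes were handled, and in which version, is not stated there. These deposited values were read as log10 ratios of Cy5 over Cy3, with a median of 0 on both arrays; the scale is inferred, and how they were centred and their direction are not stated. They were multiplied by 3.32 (log2 of 10), and the sign of array 2 was turned. The 725 unlisted spots below −1 on both arrays were treated as controls and left out. Spots were named through GEO's platform annotation (32042 with 1 symbol, 47 with several, 11701 unlisted), and 31906 matched RefSeq GRCm38.p6 by gene number; RefSeq supplied the gene order, promoters and chromosomes. Probes of a symbol were averaged, giving 30110 entries.

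With limma 3.58.1 (R 4.3.3; lmFit, eBayes) each entry's mean ratio was set against 0, two-sided, and adjusted after Benjamini-Hochberg over all entries, with 0.05 as the threshold. Each entry had 1 residual degree of freedom and 0.861 from the prior, and the script was tested on simulated data. The p-values concern only the mean ratio of these 2 clone pairs, judged by the spread between the arrays together with limma's prior. The test takes the arrays as independent, although both transformants descend from the disruptant clone used on array 1. How far this alters the p-values and the intervals was not tested. The number of arrays limits the precision. The members and lists were chosen with earlier results of these data known, so lists are described by counts and medians and not tested. All members are named, and from each list its lowest and highest gene, likewise among neighbours, the nearest genes to Pou5f1 and Sox2, and others where said. Alternatives were centring, single probes, zeros left out, dye sign, a log2 reading, control spots, named probes alone, variance models, a 1.5-fold limit and leaving out an array.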

Additional observations from a re-analysis of the deposited data

How the results depend on the processing

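The count of genes of the group that passed limma's adjusted test was 0 under each alternative run, with the smallest adjusted p between 0.605 and 1. Over all entries, the group included, also 0 passed. Those at an unadjusted limma p under 0.05 numbered 947 of 30110 in the report and 2770 of 30110 with array 2 not turned. They were 625 of 27534 with exact zeros left out and 488 of 19087 with named probes alone. With treat against a 1.2-fold change they were 415 of 30110. Genes below 0 on both arrays numbered 4 with other centring, the median over probes, zeros left out and a log2 reading, 4 of 11 spots with each probe by itself, and 2 with array 2 not turned. By 1 array alone 5 to 6 genes were below 0, and 1 to 3 were at least 2-fold apart, Lin28a and Rif1 being added by array 1. Shares of all entries by 1 array were not counted, but the median over all entries was 0 on each array. The count at least 2-fold apart on both arrays, 1 in the report, was 0 with array 2 not turned and 0 with the deposited values read as log2, which shrinks every ratio, and 1 with a 1.5-fold limit.

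With array 2 not turned, which goes against the dye labels and cancels any difference shared by the arrays, Pou5f1 had −0.20, Utf1 −0.18 and Fbxo15 0.40, each with the sign changed. Over the single arrays Rif1 ranged from −0.23 to 1.11, Sall4 from −0.17 to 0.0195 and Dppa2 from −0.23 to 0.0164, each with the sign changed on array 2 alone. Other single-gene results kept their direction, 93 of 99. Without array 1 the mean of Lin28a was −0.12. No paired analysis was possible because each array is already a pair of RNAs and there is 1 group of ratios. With 1 array per orientation, dye and clone pair limit every value, and signal over background is unknown.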

Other observations

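Within the protein partners of Oct4 and Sox2, single complexes gave the following values. These genes were chosen after their values were seen, and none passed limma's adjusted test (adjusted p = 1 for each). The deacetylase genes Hdac1 and Hdac2, of NuRD and other repressor complexes, had −0.08 and −1.05, and −0.21 and −0.82. The probes of Hdac2 disagreed on array 2, with −2.09 and 0.46. Of the other NuRD subunit genes in the list beside Mta1, Mta2 had 0.07 and −0.02, Gatad2a −0.18 and 0.32, Chd4 0.18 and −0.63, and Gatad2b 0.50 and −0.68. The probes of Mta2 had 0.62 and −0.48 on array 1, and 1 of the 3 probes of Chd4 was near 0 on array 2. Of the Xpc, Rad23b and Cetn2 complex, which acts as a coactivator of Oct4 and Sox2 beside its part in DNA repair, Rad23b had −0.02 and −1.02 and Cetn2 −0.18 and −1.13, while Xpc had −0.53 and 0.12. The 4 probes of Rad23b ranged from −1.54 to −0.07 on array 2. Zfp281, a zinc finger partner of Oct4 and Nanog, had 1.02 and −2.61. Parp1, an ADP-ribosylating enzyme that binds Sox2, had −0.59 and −0.72, the lowest mean of the 5 partners below 0 on both arrays.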
